A study of Mus musculus with 9 samples.

Results

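The genes described here are the 10 mouse genes that encode the TFEB family of transcription factors (Tfeb, Tfe3 and Mitf), folliculin with its partners (Flcn, Fnip1 and Fnip2) and the Rag GTPases (Rraga, Rragb, Rragc and Rragd). They were chosen by name, and all 10 were found among the 18062 genes of the deposited table, 8 under their own symbol and Tfeb and Tfe3 under the older symbols Tcfeb and Tcfe3 through their RefSeq accessions. The table holds RNA sequencing of white gastrocnemius, the portion of this calf muscle with mostly fast fibres. There were 5 libraries from Gaa knock-out mice (KO), all 5 months old, and 4 from wild-type mice (WT), of which 2 were 5 and 2 were 6 months old. In the KO mice exon 6 of Gaa, the gene of the lysosomal enzyme acid alpha-glucosidase, is disrupted by gene targeting, with loxP sites in the introns on either side. Mice of both genotypes are labelled as of mixed background, and a BL6/129j colony kept by brother-sister mating is described. The 4 WT columns carry no age, so they form 1 arm. Age is thus partly tied to genotype, and its part in the differences below cannot be told apart. The labels do not say that each library came from a separate mouse, and the p-values then speak only of the variation among libraries, part of which may be technical.

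Lysosomes carry the switch that these genes build. The Rag GTPases work as pairs, RagA or RagB with RagC or RagD, and recruit the kinase mTORC1 to the lysosomal surface when amino acids are plentiful. Folliculin, bound to Fnip1 or Fnip2, is the GTPase-activating protein of RagC and RagD, and the pair it produces presents TFEB and TFE3 to mTORC1. Phosphorylated TFEB and TFE3 are held in the cytoplasm, and their dephosphorylated forms enter the nucleus and switch on genes of lysosomes and autophagy. Rragd, Flcn and Fnip2 are themselves known in other cells as targets of the family. RNA levels do not show where the proteins are or whether they are phosphorylated. In a whole piece of muscle, fewer cells of a type and less RNA per cell cannot be told apart.

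Values are RPKM, that is, reads mapped to a transcript divided by its length and by the library's mapped reads, summed over the transcripts of a gene. Low values move in steps of single reads, and from these steps each RPKM per kilobase of transcript was estimated at 17.65 to 37.4 reads in KO and 37.0 to 64.15 reads in WT libraries, with ko3 the shallowest and wt3 the deepest. RPKM totals were 349239 to 374056 in the KO and 315337 to 327517 in the WT libraries. Gaa lay between 3.11 and 3.64 RPKM in the KO and between 46.0 and 56.0 RPKM in the WT libraries, as the labels call for. The fast-fibre genes that define this muscle were abundant: Myh4, the myosin of the fastest fibres, averaged 11900 ± 738 RPKM in the KO (SD, n = 5) and 13800 ± 1660 RPKM in the WT (SD, n = 4). Markers of other cells and fibres were read beside all genes tested. Of those genes 37% were called higher and 14.8% lower in the KO, by the test described below. Of 10 skeletal muscle markers, Myh4 among them, 4 were higher and none was lower. After centring each library on its median, 2 were higher and 1, Myh4, was lower. Des, of the same list, went the other way from Myh4, at 2370 RPKM in the KO and 1200 in the WT. Of 22 macrophage markers none was at 0 in all libraries, 14 of the 16 tested were higher in the KO and none was lower, and the summed level was 87.9 to 150 RPKM in the KO and 36.9 to 49.1 in the WT libraries. All 7 slow-fibre markers were higher (summed 187 to 446 RPKM in the KO, 55.0 to 193 in the WT, ranges that overlap). Of 8 fibroblast markers 4 were higher (291 to 389, against 189 to 279), where 37% of all genes were. With each library centred on its median, 4 fibroblast markers were higher and 1 lower. Of 12 endothelial markers 7 were lower (32.2 to 56.6, against 45.2 to 73.7), as were 4 of 8 adipocyte markers (205 to 318, against 251 to 394). Both sums overlapped between the genotypes. The adipocyte genes Cfd and Retn had higher means in the KO (52.5 against 39.6 RPKM and 4.4 against 3.4 RPKM) and were not called. The part of these cells and fibres in the results below was not tested.

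The differences that passed the test were modest, with means that rose by 17.9% to 32.2% in KO muscle or fell by 18.4% (Flcn) and fell by 26.0% (Fnip1). Tfeb, Tfe3, Rragc and Rragd were higher in KO muscle, and Flcn and Fnip1 were lower. Mitf, Fnip2, Rraga and Rragb did not pass the threshold. All 10 passed the expression filter (a mean of at least 0.5 RPKM over the 9 libraries) and were tested with limma on log2(RPKM + 0.1), with Benjamini-Hochberg adjustment over all 11032 genes tested and a threshold of 0.05. In that test 37% of all genes were called higher and 14.8% lower in the KO, so 4 of 10 higher and 2 of 10 lower is close to the background, and the counts say nothing particular about these genes. The median gene was 0.123 higher in the KO on the log2 scale, and changes below are also given relative to it or after each library was centred on its median. Centring left 2 of the 10 genes higher and 3 lower, where 25.1% of all genes were higher and 25% lower.

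Rragd stood far above the others, followed by Tfeb, Rraga, Flcn, Fnip1 and Rragc, and the remaining 4 were low. Rragd was higher in RPKM than 94.8% of the genes tested (mean over the 9 libraries), Tfeb than 84.7%, Rraga than 83.1%, Flcn than 78.6%, Fnip1 than 73.9% and Rragc than 67.8%. Mitf and Tfe3 lay above 33.4% and 33.0%, Fnip2 above 9.64% and Rragb above 6.07%. The ranges of neighbours in this order overlapped in KO muscle for Fnip1 and Rragc and for Tfe3 and Mitf. In WT muscle they overlapped for Tfeb and Rraga, for Rraga and Flcn, for Flcn and Fnip1 and for Rragb and Fnip2. Mitf lay above Tfe3 in every WT library, while in the KO libraries their ranges overlapped.

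**Figure D1:**
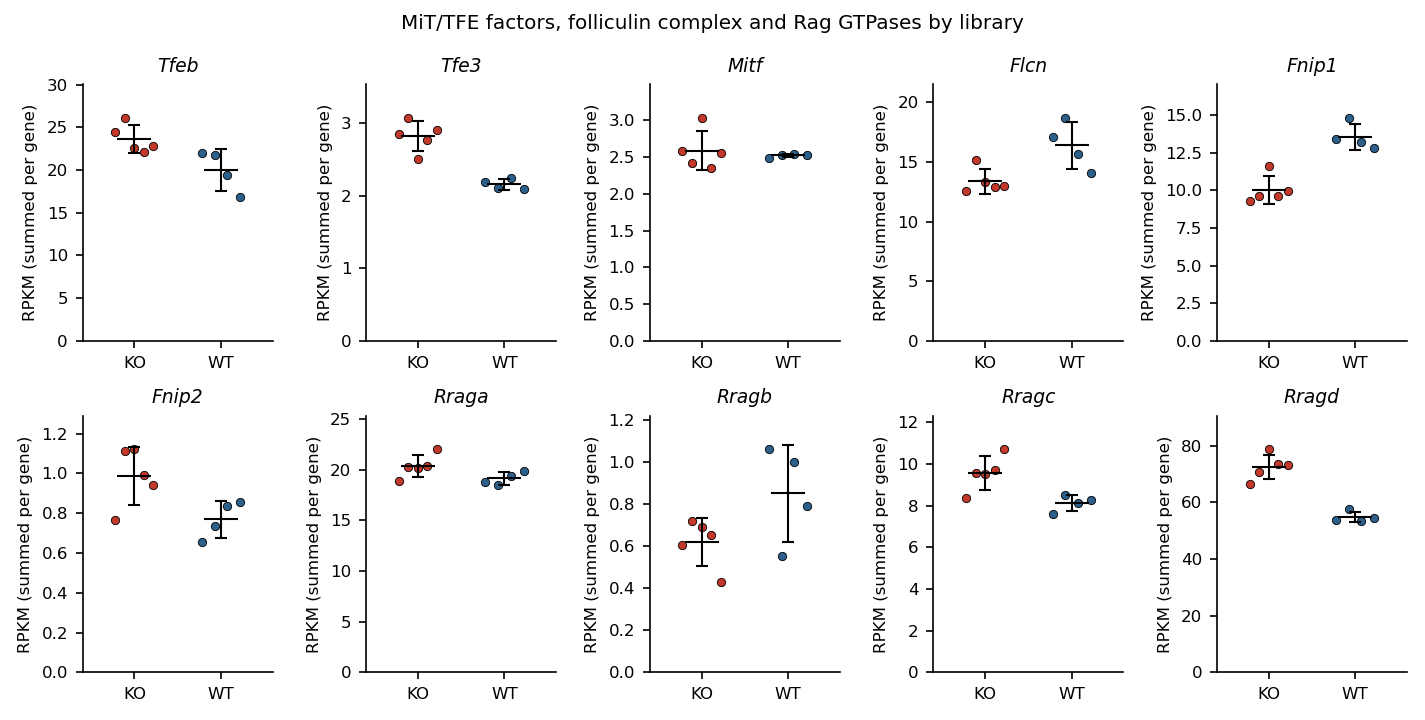
Level of each gene (RPKM, transcripts summed, linear axis from 0) in 5 KO libraries (left, red) and 4 WT libraries (right, blue), with horizontal bars at the mean and error bars of 1 SD. Rragd lies between 66.6 and 78.7 in the KO and between 53.5 and 57.6 in the WT libraries, Fnip1 between 9.30 and 11.6 in the KO and between 12.8 and 14.8 in the WT libraries, and the Mitf ranges overlap.

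The promoter windows of Rragb, Rragc, Rragd and Fnip1 and of the first and second Tfeb starts are shown because the TFEB family binds the hexamer CACGTG, the core of the CLEAR element of lysosomal genes, so that the sequence in front of genes of this circuit can be read beside their levels. The windows are RefSeq's, of build GRCm38.p6, on the plus strand, 5′ to 3′, from 250 bases before a gene's start to 50 bases after it. They are promoter sequence up to the start and first exon after it, and capitals mark each CACGTG.
Rragd, chr4:32982748-32983047: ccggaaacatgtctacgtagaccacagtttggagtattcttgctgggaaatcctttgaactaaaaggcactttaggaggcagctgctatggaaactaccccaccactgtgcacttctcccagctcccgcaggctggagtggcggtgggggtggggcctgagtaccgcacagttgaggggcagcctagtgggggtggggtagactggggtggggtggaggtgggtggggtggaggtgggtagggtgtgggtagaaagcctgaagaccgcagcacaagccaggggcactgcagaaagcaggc
Rragc, chr4:123917183-123917482: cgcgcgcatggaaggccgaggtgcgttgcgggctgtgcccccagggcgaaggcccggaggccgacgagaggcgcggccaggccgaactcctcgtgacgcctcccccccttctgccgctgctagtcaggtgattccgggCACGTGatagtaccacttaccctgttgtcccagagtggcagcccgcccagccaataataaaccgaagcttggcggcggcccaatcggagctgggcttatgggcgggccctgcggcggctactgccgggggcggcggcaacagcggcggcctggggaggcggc
Rragb, chrX:153139708-153140007: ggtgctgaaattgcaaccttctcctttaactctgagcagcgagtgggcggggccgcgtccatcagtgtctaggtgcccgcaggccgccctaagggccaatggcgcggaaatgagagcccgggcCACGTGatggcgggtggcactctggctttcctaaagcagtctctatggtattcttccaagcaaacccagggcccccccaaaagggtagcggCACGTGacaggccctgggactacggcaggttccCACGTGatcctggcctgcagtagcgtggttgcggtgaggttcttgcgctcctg
Fnip1, chr11:54437929-54438228: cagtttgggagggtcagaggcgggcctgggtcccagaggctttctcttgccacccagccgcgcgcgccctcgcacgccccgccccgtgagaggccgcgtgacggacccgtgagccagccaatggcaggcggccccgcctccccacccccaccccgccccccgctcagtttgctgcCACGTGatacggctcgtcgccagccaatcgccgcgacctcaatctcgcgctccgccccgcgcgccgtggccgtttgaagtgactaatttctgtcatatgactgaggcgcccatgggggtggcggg
Tfeb, first start, chr17:47736787-47737086: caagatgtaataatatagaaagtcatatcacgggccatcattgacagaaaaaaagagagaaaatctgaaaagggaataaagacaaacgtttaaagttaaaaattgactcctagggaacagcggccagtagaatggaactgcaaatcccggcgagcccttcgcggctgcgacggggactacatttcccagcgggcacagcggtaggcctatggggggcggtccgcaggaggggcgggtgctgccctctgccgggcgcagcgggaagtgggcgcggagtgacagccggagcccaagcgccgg
Tfeb, second start, chr17:47737681-47737980: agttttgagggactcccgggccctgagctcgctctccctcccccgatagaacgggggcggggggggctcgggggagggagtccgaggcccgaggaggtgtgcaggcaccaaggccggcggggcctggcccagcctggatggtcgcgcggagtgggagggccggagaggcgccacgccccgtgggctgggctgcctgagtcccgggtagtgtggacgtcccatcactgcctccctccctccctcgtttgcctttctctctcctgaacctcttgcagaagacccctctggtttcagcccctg

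All 10 genes had at least 1 such window, 15 in all. CACGTG, which reads the same on both strands, stood in those of 3 genes: once in Rragc, at base -112 from the start, once in Fnip1, at base -75, and 3 times in Rragb, at bases -127, -36 and -3 (the first base of the motif, counted back from the start). It was found in 8.09% of 27025 mouse genes with a window (7.15% of 32851 windows). Each of these 5 matches is followed by an A. The 7-letter form CACGTGA, searched on both strands after those flanks were seen and containing the hexamer, occurs in 4.29% of genes. The 8-letter form TCACGTGA (1.12% of genes), which also contains the hexamer, was in none of the 15 windows, and neither was the related element CATGTG (15.9% of genes), both searched on both strands. The 3 genes with a match differed in how they changed: Rragc was higher, Fnip1 lower, and Rragb did not pass the threshold. A match is a description of letters and not of a bound site, and windows without one say nothing about the factor.

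Tfeb, the best known regulator of lysosomal genes, was slightly higher in KO muscle. It had 24.4, 26.1, 22.6, 22.1 and 22.8 RPKM in the KO libraries, against 22, 21.8, 19.4 and 16.8 RPKM in the WT libraries. The lowest KO library lay only just above the highest WT library, so the groups parted with almost no gap. The means were 23.6 ± 1.65 RPKM (SD, n = 5) in the KO and 20.0 ± 2.45 RPKM (SD, n = 4) in the WT, a log2 fold change of 0.25 (SE 0.08, limma adjusted p = 0.028). Relative to the median gene the change was 0.12, and after each library was centred on its median the call was lost (0.12, limma adjusted p = 0.29). It was also lost when ko1, ko2, wt3 or wt4 was left out, with limma adjusted p of 0.059, 0.062, 0.06 and 0.081.

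Tfe3, which acts beside Tfeb on the same promoters, was much less abundant and was also higher in KO muscle. Its values were 2.85, 3.07, 2.51, 2.77 and 2.90 RPKM in the KO libraries, against 2.19, 2.10, 2.24 and 2.09 RPKM in the WT libraries. Every KO value was above every WT value, as was so for 30.9% of all genes tested. The log2 fold change was 0.37 with an SE of 0.07 (limma adjusted p = 0.0014), 0.25 relative to the median gene, and the call held after centring (limma adjusted p = 0.012) but not for the more abundant of its 2 transcript lines alone (0.19, limma adjusted p = 0.12). Tfeb was 7.85 to 9.0 times as abundant as Tfe3 in the KO and 8.04 to 10.4 times in the WT libraries, ranges that overlap.

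Mitf, the remaining member of the family, is best known from pigment cells, osteoclasts and mast cells. Its summed level was 2.58, 2.42, 3.03, 2.35 and 2.55 RPKM in the KO libraries, against 2.49, 2.53, 2.54 and 2.53 RPKM in the WT libraries. The WT values were nearly the same, with a coefficient of variation of 1.04%, and sat inside the KO range, whose coefficient was 10.3%. The log2 fold change was 0.03 with a 95% interval of -0.15 to 0.21 (limma adjusted p = 0.78), and the estimate was -0.10 after centring (limma adjusted p = 0.35). Together the 3 factors summed to 27.3 to 31.6 RPKM in the KO and 21.4 to 26.7 RPKM in the WT libraries, and Tfeb made up 80.3% to 82.6% of the sum in the KO and 78.4% to 82.5% in the WT libraries. Markers of cells in which Mitf is prominent were read beside it. The 5 melanocyte markers in the table summed to 0.233 to 0.695 RPKM in the KO and 0.310 to 0.756 in the WT libraries and none was tested, and 9 mast cell markers summed to 3.38 to 4.61 in the KO and 3.98 to 6.10 in the WT libraries. The 5 osteoclast markers summed to 4.06 to 7.39 RPKM in the KO and 3.19 to 4.97 in the WT libraries, and 1 of the 2 tested, Ctsk, was higher (limma adjusted p = 0.00745). The other, Acp5, went the other way, at 1.37 RPKM in the KO and 1.74 in the WT, and was not called (limma adjusted p = 0.147). With centring Acp5 was called lower (-0.45, limma adjusted p = 0.042). The part of these cells in the Mitf values was not tested.

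The table lists RefSeq transcripts on separate lines for the 3 factors, and the lines differed more than the sums. How reads shared by the transcripts of a gene were divided is not given in the sources used here, and these values rest on that division. Tfeb has 3 lines with different first exons in the GENCODE M21 annotation, the second starting 0.9 kilobases and the third 48.7 kilobases after the first. The line of the second start (NM_001161723) had 4.39, 4.94, 4.02, 3.76 and 4.16 RPKM in the KO libraries, against 2.74, 2.77, 2.39 and 2.88 RPKM in the WT libraries. All KO values lay above all WT values, the log2 fold change was 0.64 with an SE of 0.09 (limma adjusted p = 0.00029 over 13159 lines), and in that test 31% of lines were called higher and 12.2% lower. The line of the first start, which held most of the sum, averaged 14.3 ± 1.59 RPKM in the KO (SD, n = 5) and 12.6 ± 1.61 RPKM in the WT (SD, n = 4) and was not called (limma adjusted p = 0.2). The line of the third start varied within each genotype, from 2.83 to 6.79 RPKM in the KO and from 2.95 to 7.46 RPKM in the WT libraries. The windows printed for the first and second Tfeb starts belong to these lines and hold no CACGTG.

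Tfe3 has 2 lines that start and end nearly together in the same annotation and hold 10 and 9 exons. The 9-exon line (NM_001105196) had 0.655, 0.972, 0.474, 0.955 and 1.07 RPKM in the KO libraries, against 0.298, 0.607, 0.403 and 0.364 RPKM in the WT libraries. The groups overlapped through ko3 and wt2, and the line was called higher (log2 fold change 0.82, SE 0.25, limma adjusted p = 0.023), on an estimated 26 to 113 reads a library in the KO and 35 to 82 in the WT. The 10-exon line (NM_172472) averaged 2.0 ± 0.164 RPKM in the KO (SD, n = 5) and 1.73 ± 0.177 RPKM in the WT (SD, n = 4) and was not called (limma adjusted p = 0.14).

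Of the 3 Mitf lines, 1 was tested and called lower, and the others were too low to test. The line of the first, most distant start (NM_001113198) had 1.46, 2.07, 1.79, 1.55 and 1.23 RPKM in the KO libraries, against 2.06, 2.13, 2.23 and 1.97 RPKM in the WT libraries. Library ko2 lay within the WT range and the other KO libraries below it, and the line was called lower by a small margin (log2 fold change -0.37, SE 0.14, limma adjusted p = 0.047). The second line (NM_001178049), which starts 122.7 kilobases further on, had 0.558, 0.235, 0.770, 0.423 and 0.482 RPKM in the KO libraries, against 0.224, 0.220, 0.204 and 0.340 RPKM in the WT libraries. The third line (NM_008601), whose start 184.7 kilobases after the first is the one used in melanocytes, had 0.562, 0.117, 0.473, 0.373 and 0.837 RPKM in the KO libraries, against 0.205, 0.177, 0.109 and 0.223 RPKM in the WT libraries. In both lines ko2 fell among the WT values and the other KO libraries lay above all WT values. Neither reached the expression filter, and their exact two-sided permutation p was 0.04 and 0.071, unadjusted. The third line rests on an estimated 8 to 52 reads a library in the KO and 13 to 20 in the WT. The first transcript runs 2642 bases further at its 3′ end than the others, so a difference in reads over that last stretch would move the lines in opposite directions as well, and this cannot be told apart in the table.

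**Figure D2:**
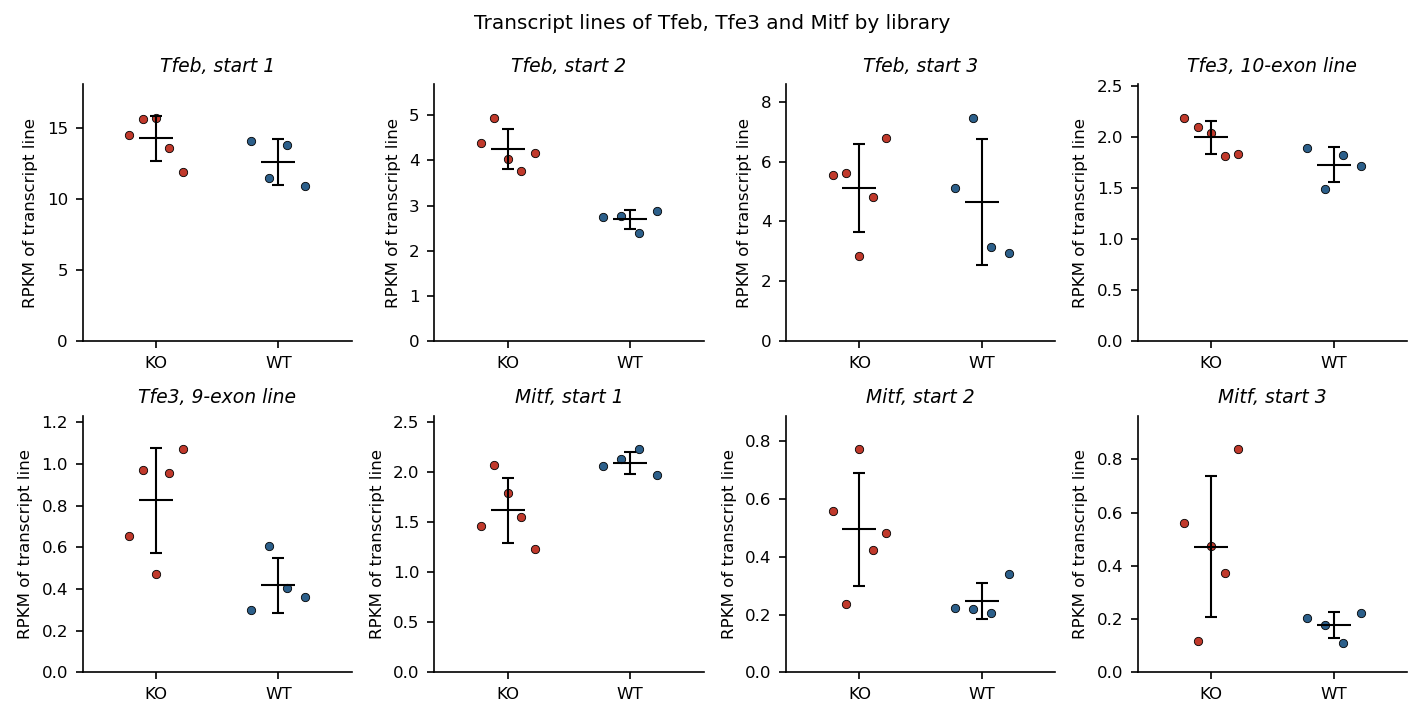
RPKM of each transcript line of Tfeb, Tfe3 and Mitf (linear axes from 0) in 5 KO libraries (left, red) and 4 WT libraries (right, blue), with the mean and 1 SD. The second Tfeb start lies between 3.76 and 4.94 in the KO and between 2.39 and 2.88 in the WT libraries, and the first Mitf start is mostly lower and the other lines mostly higher in the KO, with ko2 apart.

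Folliculin and its main partner fell together. Flcn, which encodes the GTPase-activating subunit, had 12.6, 15.2, 13.3, 12.9 and 13.0 RPKM in the KO libraries, against 17.1, 18.7, 15.7 and 14.1 RPKM in the WT libraries. The groups overlapped because ko2 lay above wt4, and the other KO libraries were below all WT libraries. The means were 13.4 ± 1.05 RPKM in the KO (SD, n = 5) and 16.4 ± 1.99 RPKM in the WT (SD, n = 4), a log2 fold change of -0.29 (SE 0.08, limma adjusted p = 0.014) and -0.41 relative to the median gene.

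Fnip1, the main partner with which folliculin binds to lysosomes, had the lower log2 fold change of the 2 genes called lower. It had 9.30, 9.63, 11.6, 9.62 and 9.97 RPKM in the KO libraries, against 13.4, 14.8, 13.2 and 12.8 RPKM in the WT libraries. Every KO value was below every WT value, as was so for 11.4% of all genes tested. The KO mean was 26.0% below the WT mean (fold 0.740), with a log2 fold change of -0.43 (SE 0.07, limma adjusted p = 0.00042) and -0.56 relative to the median gene.

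Fnip2, the paralog that can replace Fnip1, was scarce. It had 0.765, 1.11, 1.12, 0.990 and 0.942 RPKM in the KO libraries, against 0.654, 0.733, 0.835 and 0.854 RPKM in the WT libraries. Only ko1 fell within the WT range. The log2 fold change was 0.32 with a 95% interval of 0.03 to 0.61, short of the threshold after adjustment (limma adjusted p = 0.064), and it passed without ko1 (0.40, limma adjusted p = 0.021). The ratio of Fnip1 to Fnip2 was 12.2, 8.67, 10.3, 9.72 and 10.6 in the KO libraries, against 20.5, 20.2, 15.8 and 14.9 in the WT libraries. The ratios of the genotypes did not overlap and do not depend on the scaling of a library, and Fnip2 made up 3.38% to 4.31% of the summed folliculin complex transcripts in the KO and 2.10% to 3.08% in the WT libraries. That sum was 22.6 to 26.0 RPKM in the KO and 27.7 to 34.3 RPKM in the WT libraries.

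Of the Rag genes on the RagA and RagB side neither was called. Rraga, the more abundant, had 18.9, 20.3, 20.2, 20.4 and 22 RPKM in the KO libraries, against 18.8, 18.5, 19.4 and 19.9 RPKM in the WT libraries. The groups overlapped through ko1, and the log2 fold change was 0.09 with a 95% interval of -0.03 to 0.20 (limma adjusted p = 0.2). After centring the estimate was -0.04 (limma adjusted p = 0.53). Rragb, its paralog, had 0.608, 0.718, 0.692, 0.651 and 0.432 RPKM in the KO libraries, against 1.06, 0.555, 1.00 and 0.790 RPKM in the WT libraries. Library wt2 lay inside the KO range and the other WT libraries above it, on an estimated 28 to 58 reads in the KO and 47 to 145 reads in the WT libraries. The log2 fold change was -0.38 with an interval of -0.80 to 0.03 (limma adjusted p = 0.11), and it passed the threshold lower with centring (-0.51, limma adjusted p = 0.036) or without wt2 (-0.55, limma adjusted p = 0.021).

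On the RagC and RagD side both genes were called higher. Rragc had 8.37, 9.58, 9.51, 9.73 and 10.7 RPKM in the KO libraries, against 7.61, 8.52, 8.11 and 8.25 RPKM in the WT libraries. Only ko1 lay within the WT range. The log2 fold change was 0.23 with an SE of 0.07 (limma adjusted p = 0.017), 0.11 relative to the median gene, and the call was lost with centring (limma adjusted p = 0.22) and without wt1 (0.20, limma adjusted p = 0.054).

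Rragd, the most abundant of the 10 in this muscle, changed with the smallest p of them. It had 66.6, 70.7, 78.7, 73.4 and 73.1 RPKM in the KO libraries, against 53.7, 57.6, 53.5 and 54.5 RPKM in the WT libraries. The groups were separated by a gap wider than the whole WT range. The means were 72.5 ± 4.4 RPKM in the KO (SD, n = 5) and 54.8 ± 1.87 RPKM in the WT (SD, n = 4), which is 32.2% higher, with a log2 fold change of 0.40 (SE 0.05, limma adjusted p = 9.1e-05). It remained called with centring (0.27, limma adjusted p = 0.0023). The exact two-sided permutation p was 0.0079 for Rragd, Tfe3 and Tfeb, which is the floor of this test with 126 possible splits.

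**Figure D3:**
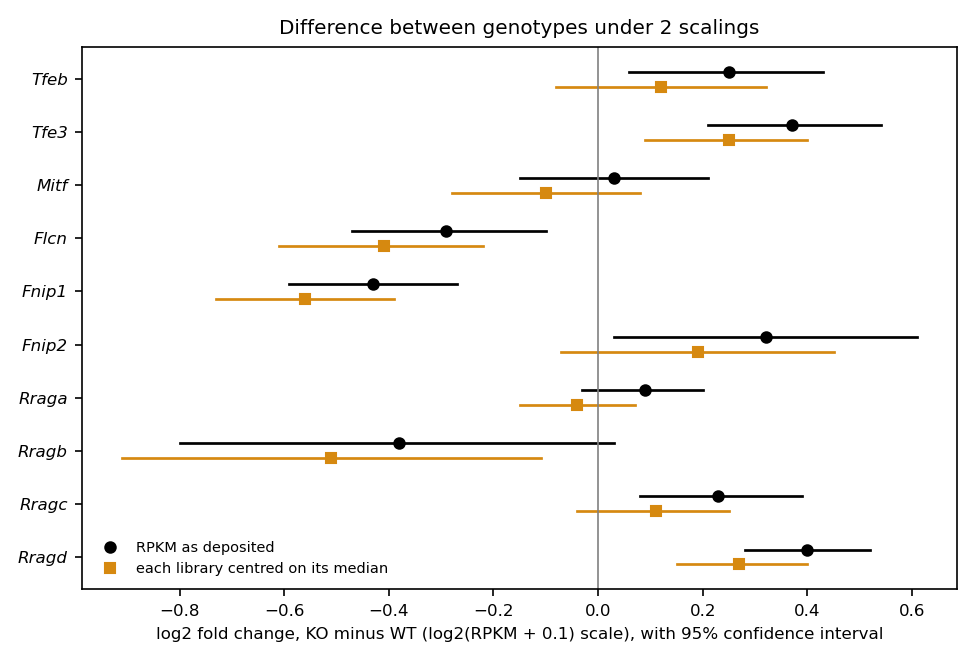
Log2 fold change of each gene (KO minus WT, log2(RPKM + 0.1) scale) with its 95% confidence interval, on RPKM as deposited (black circles) and with each library centred on its median (orange squares). Rragd and Tfe3 lie above 0 and Flcn and Fnip1 below 0 under both, the intervals of Tfeb and Rragc reach 0 after centring, and that of Rragb lies wholly below 0 only after centring.

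Ratios of the genes within each library were read beside their levels. RagD was 6.83 to 8.27 times as abundant as RagC transcript in the KO and 6.6 to 7.06 times in the WT libraries, so the ranges overlapped, and Rragd held 87.2% to 89.2% of their sum in the KO and 86.8% to 87.6% in the WT libraries. The sum of Rragc and Rragd was 75.0 to 88.2 RPKM in the KO and 61.4 to 66.1 RPKM in the WT libraries, while that of Rraga and Rragb was 19.5 to 22.4 RPKM in the KO and 19.0 to 20.7 RPKM in the WT libraries. Rragc and Rragd together were 3.74 to 4.21 times Rraga and Rragb together in the KO libraries and 3.02 to 3.47 times in the WT libraries, without overlap. Rragd over Flcn, the gene of its GTPase-activating protein, was 5.30, 4.65, 5.93, 5.70 and 5.63 in the KO libraries, against 3.15, 3.07, 3.41 and 3.87 in the WT libraries, again without overlap. Rraga over Rragb was 28.2 to 50.8 in the KO and 17.8 to 33.3 in the WT libraries, which overlap. Fnip1 plus Fnip2 over Flcn overlapped as well, at 0.707 to 0.955 in the KO and 0.823 to 0.967 in the WT libraries. No test was run on these ratios, which combine genes with known differences. Rragd was already called higher and Flcn lower, so the separation of their ratio adds little to those calls.

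**Figure D4:**
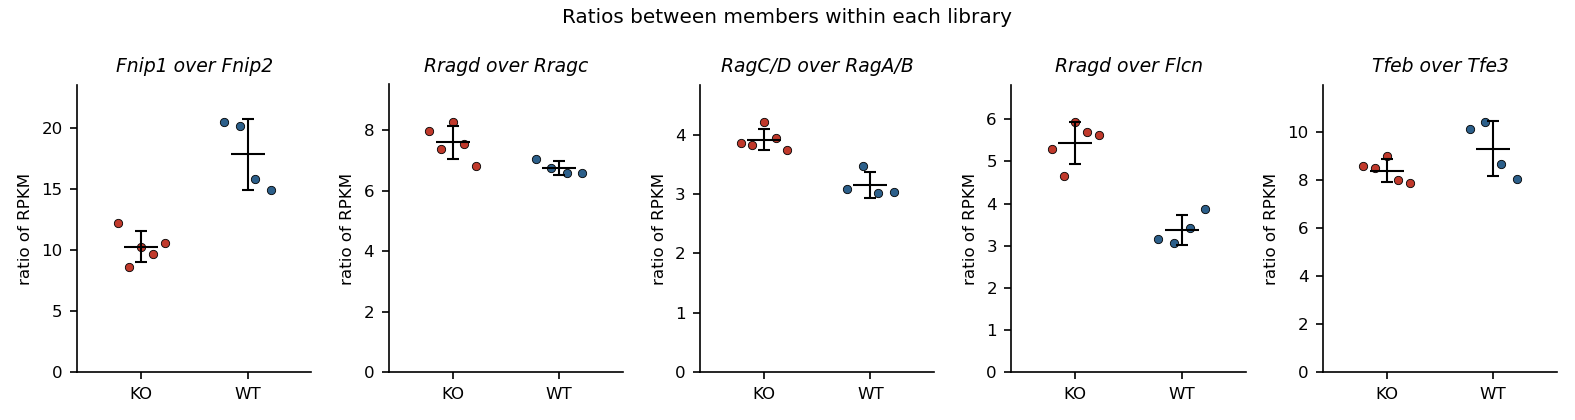
Ratios of RPKM between members within each library (linear axes from 0), with 5 KO libraries on the left in red, 4 WT libraries on the right in blue, the mean and 1 SD. Rragd over Flcn lies between 4.65 and 5.93 in the KO and between 3.07 and 3.87 in the WT libraries, Fnip1 over Fnip2 between 8.67 and 12.2 in the KO and between 14.9 and 20.5 in the WT libraries, and Rragd over Rragc overlaps.

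The genes with the most similar pattern to Rragd over the 9 libraries, by Pearson's r of log2(RPKM + 0.1), were Prkx (0.994), Mocos (0.983), Cpeb3, Hprt and Kpnb1 (0.982 each). For Fnip1 they were Myo6 (0.992), Pppde1 (0.991), Hsd17b7 (0.986), Foxn2 (0.985) and Usp47 (0.983). These values mostly follow the genotype difference. With the genotype means removed, the highest r was 0.983 for Rragd, with Phf6, and 0.985 for Fnip1, with Ddx10. Among the 10 genes themselves, the closest pairs with the genotype means removed were Fnip1 with Rragd (r = 0.88) and Tfeb with Flcn (r = 0.87). Thus Fnip1 and Rragd, which differed in opposite directions between the genotypes, moved alike within them, both with their highest KO value in ko3, the shallowest library. All values of a library share its depth and scaling, and no p is given.

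The partners of the circuit were read from lists of known complexes, whose counts stand against 37% of all genes called higher and 14.8% called lower, or 25.1% and 25% after centring. Ragulator, the scaffold that anchors Rag GTPases to the lysosome, had 4 of 5 subunits higher and none lower, with a list median of 0.43 on the log2 scale, against 0.123 for all genes tested, where 37% were called higher. Lamtor1, which holds the complex in the membrane by its lipid anchor, averaged 44.0 ± 1.84 RPKM in the KO (SD, n = 5) and 32.6 ± 1.08 RPKM in the WT (SD, n = 4), with a log2 fold change of 0.43 (limma adjusted p = 2.46e-05). Lamtor2 averaged 43.1 ± 3.92 RPKM in the KO and 28.8 ± 1.36 in the WT, and Lamtor4 26.2 ± 1.83 in the KO and 19.0 ± 1.86 in the WT. Lamtor5 was at 19.6 ± 1.19 RPKM in the KO and 16.5 ± 0.304 in the WT, and it was not called after centring, where 3 of 5 stayed higher. With the trend of transcript length removed, 2 of 5 stayed higher. Lamtor3 was at 11.2 ± 1.29 RPKM in the KO and 10.1 ± 0.693 in the WT and did not pass the test (limma adjusted p = 0.187).

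GATOR1, the GTPase-activating complex of RagA and RagB, and its KICSTOR anchor had 0 of 6 tested genes higher and 2 lower. The 2 were the KICSTOR genes Itfg2, at 2.56 ± 0.279 RPKM in the KO and 4.14 ± 0.747 in the WT, and Kptn, at 2.95 ± 0.317 in the KO and 4.0 ± 0.471 in the WT. In this list 1 gene was higher with the trend of transcript length removed, with the top transcript line alone or without ko3. Kics2, also of this list, was not found among the deposited genes. Of GATOR2, which opposes GATOR1, 3 of 5 genes were higher and 1 lower, and with centring 1 and 1. The 3 fell to 1 when ko2, ko4, wt1, wt2 or wt4 was left out, and 37% of all genes were called higher. Seh1l rose to 7.86 ± 0.262 RPKM in the KO, against 5.56 ± 0.442 in the WT, and Mios fell to 3.03 ± 0.0763 in the KO, against 3.92 ± 0.312 in the WT. Among 8 amino acid sensors 2 were higher and none lower, the lysosomal transporter Slc38a9 at 1.14 ± 0.0933 RPKM in the KO and 0.851 ± 0.0318 in the WT, and Castor2 at 7.68 ± 0.604 in the KO and 6.29 ± 0.716 in the WT. With centring 1 was higher and 1 lower, and 1 was lower without ko3. In the list of the mTORC1 core, Rheb and the TSC complex 2 of 10 were higher (Rhebl1 and, at limma adjusted p = 0.0498, Mlst8) and 1 lower, with 1 and 4 after centring. Only 1 was higher when ko2, ko3, ko4, ko5, wt1, wt2 or wt4 was left out, and 2 were lower without ko2. Deptor, an inhibitor within mTOR complexes, fell to 8.21 ± 1.04 RPKM in the KO, against 13.1 ± 2.52 in the WT. Of the C9orf72 complex, which holds the folliculin-like protein Smcr8, with the GATOR1 genes Nprl2 and Nprl3 counted again, 0 of 5 were called in either direction by limma at the adjusted threshold, and 0 at an unadjusted p under 0.05. With centring 1 was lower, Wdr41, a subunit of the C9orf72 complex (-0.24, limma adjusted p = 0.016).

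Proteins that set where TFEB is in the cell showed 6 of 21 tested genes higher and 6 lower, with a list median of 0.05, against 37% higher, 14.8% lower and a median of 0.123 for all genes tested. With centring 4 were higher and 7 lower. The calcineurin genes, whose phosphatase dephosphorylates TFEB, were all 4 lower, the catalytic Ppp3cb at 48.1 ± 2.01 RPKM in the KO and 66.4 ± 3.64 in the WT. The others, named after their values were seen, were Ppp3ca at 40.8 in the KO and 51.5 in the WT, Ppp3cc at 6.04 and 7.25, and the regulatory subunit Ppp3r1 at 42.7 and 52.5. Gsk3b, a kinase of TFEB, fell to 6.36 ± 0.157 RPKM in the KO, against 8.79 ± 0.223 in the WT. Akt1, another kinase of TFEB, rose to 20.3 ± 1.72 RPKM in the KO, against 12.1 ± 0.958 in the WT, and Ywhah, a 14-3-3 protein of the kind that retains phosphorylated TFEB, to 23.1 ± 0.867 in the KO, against 16.3 ± 1.55 in the WT.

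Of 32 genes known as direct targets of TFEB or TFE3, 30 were tested, 22 were higher and 1 was lower, with a list median of 0.32, against 0.123 for all genes tested, where 37% were called higher and 14.8% lower. With centring 16 were higher and 2 lower, against 25.1% and 25% of all genes. Without ko2, wt1 or wt2, 18 were higher, and without ko4, 19 were. Without ko2 or without wt1, 2 were lower. The list was chosen with earlier results of these data known, which limits the contrast with all genes. The smallest p-values belonged to Hexa, a subunit of a lysosomal hexosaminidase, with a log2 fold change of 1.38, and to the membrane protein Lamp1, with 0.85. The gene called lower was Ppargc1a, the coactivator of mitochondrial biogenesis, with 4.23, 4.13, 5.30, 4.26 and 5.46 RPKM in the KO libraries, against 6.35, 6.06, 6.11 and 5.71 RPKM in the WT libraries (log2 fold change -0.38, limma adjusted p = 0.00555). With the most abundant transcript line of each gene alone, 0 of the list were called lower, so this call was lost there. Gpnmb, known as a marker of TFE3 activity in human kidney tumours, named after its values were seen, averaged 1.34 ± 0.321 RPKM in the KO and 0.679 ± 0.202 in the WT (limma adjusted p = 0.00331). Gpnmb and many lysosomal genes are also abundant in macrophages, whose summed markers lay at 87.9 to 150 RPKM in the KO and 36.9 to 49.1 in the WT libraries, and the part of these cells was not tested.

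**Figure D5:**
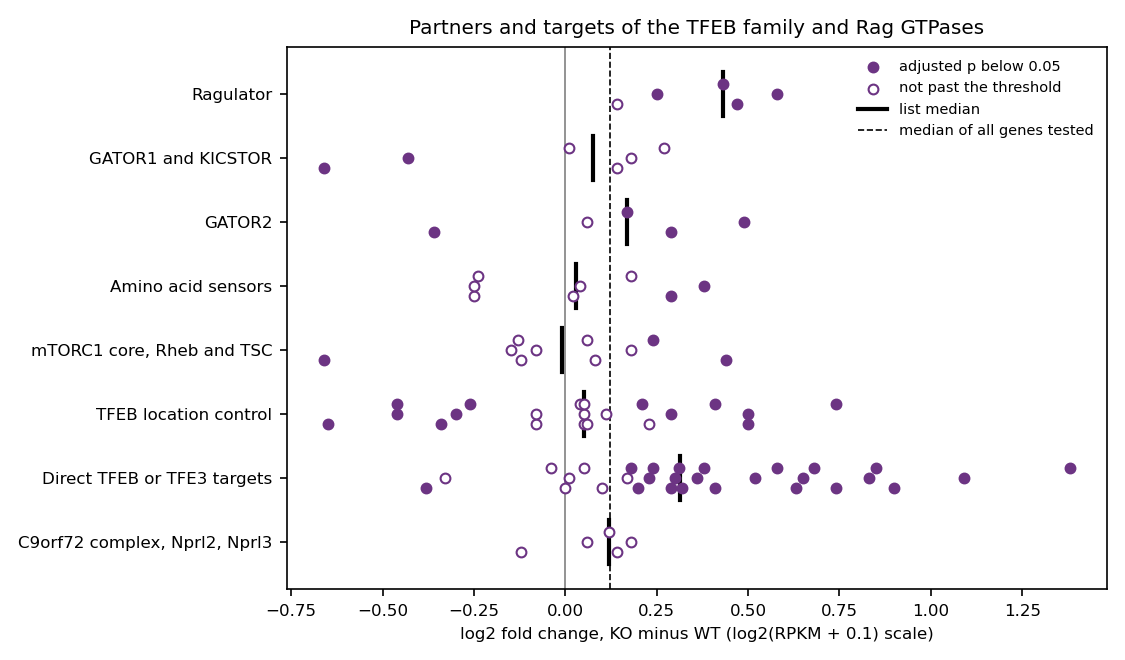
Log2 fold change (KO minus WT, log2(RPKM + 0.1) scale) of each tested gene in 8 lists of partners and targets, filled where the limma adjusted p is below 0.05, with the list median (bar) and the median of all genes tested (dashed line at 0.123). Ragulator and the direct targets lie mostly to the right of the dashed line, with medians of 0.43 and 0.32, and the lists of GATOR1, of the mTORC1 core and of TFEB location control spread to both sides.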

How the data were processed

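RNA of white gastrocnemius was sequenced in 9 libraries, 5 KO and 4 WT. TopHat 1.3.2, Bowtie 0.12.7.0, Partek 6.6 and the mouse build mm9 are named in the submitters' processing notes, as available here without the role of each. The authors deposited RPKM values for 23665 RefSeq transcript lines, summed here to 18062 genes (37 symbols that had become dates were restored). Read counts were not used here, and depth was estimated from the steps in low values, of which 70.8% to 72.8% in the KO and 72.6% to 74.4% in the WT libraries lay within 0.1 of a whole read (20% by chance), too few for a count test. Estimated reads cover counting only.

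Genes with a mean of at least 0.5 RPKM (11032) were tested with limma 3.58.1 in R 4.3.3 (two-sided, moderated with a mean trend) on log2(RPKM + 0.1), adjusted by Benjamini-Hochberg at a threshold of 0.05. The same test was run on transcript lines. Fold changes on this scale understate the change of low genes. On simulated data for this comparison (11032 genes, 5 against 4), the test found 56.7% of genes changed by 0.5 log2 units, 92.5% by 1 and 98.5% by 2. Far fewer genes were changed in that simulation than the 51.8% called in these data. The adjustment was therefore stricter there, and these shares do not give the power of the test here. Single genes also had an exact two-sided permutation test. Figures were drawn with matplotlib 3.10.9.

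The members and lists were chosen with earlier results of these data known. All members were named, and from each list up to 2 genes called higher and 2 called lower by smallest p. All genes of the Ragulator and C9orf72 lists were named, but of GATOR2 only Seh1l and Mios. The 5 genes most like Rragd and Fnip1 over all values were named. With the genotype means removed, only the gene most like each was named. Of 189 list genes 187 were found, 13 of them by accession or synonym. Marker lists describe the tissue. Alternatives were other pseudocounts, filters, scalings, the top transcript line alone, no trend and each library left out.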

Additional observations from a re-analysis of the deposited data

Results flagged for a closer look

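Of 36 sets of values (each gene and each transcript line in each genotype) 2 held a library far from the others, and chance marks about 1 in 20. Flcn in ko2, at 15.2 RPKM, stood above the other 4 KO libraries, which lay between 12.6 and 13.3 RPKM, and with it left out the call of Flcn as lower held. The second Mitf line (NM_001178049) in wt4, at 0.340 RPKM, stood above the other 3 WT libraries, which lay between 0.204 and 0.224 RPKM. That line rests on an estimated 18 to 38 reads a library in the KO and 18 to 34 in the WT.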

How the results depend on the processing

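Flcn (-0.45 to -0.22), Fnip1 (-0.58 to -0.39) and Rragd (0.22 to 0.43) kept their direction and call in all 18 alternatives. Tfe3 kept its call in 17 of the 18 and lost it with the top transcript line alone. Over all genes, 4081 were higher and 1632 lower, against 2644 and 3056 with quantile normalization, 2424 and 2871 with the trend of transcript length removed, and 2758 lower with centring. Of the members, 4 were higher, against 2 with centring, quantile normalization, length trend removed or the top transcript line alone, and 2 were lower, against 4 with the length trend removed. With centring, quantile normalization and length trend removed, in this order, the log2 fold change of Tfeb was 0.12, 0.07 and 0.07 and that of Rragc 0.11, 0.10 and 0.07, all past the threshold no longer. Rragb was -0.51, -0.56 and -0.57 and passed it. Mitf turned to -0.10, -0.12 and -0.03 and Rraga to -0.04, -0.08 and -0.15 (limma adjusted p = 0.044 for the last). With the top line alone Tfeb was 0.18 and Tfe3 0.19 (limma adjusted p = 0.18 and 0.12), neither called, and Mitf -0.37 (limma adjusted p = 0.036). Without a filter Tfeb was 0.25 (limma adjusted p = 0.055), and without the trend Fnip2 was 0.32 (limma adjusted p = 0.039). The cause was not tested. With 1 library left out, Tfeb ranged from 0.17 to 0.30, Mitf from -0.03 (without ko3) to 0.06, Fnip2 from 0.25 to 0.40, Rragb from -0.55 to -0.28 and Rragc from 0.19 to 0.28. A filter of 1 RPKM leaves Fnip2 and Rragb without a value. Counts in the pathway lists were within 1.5 times in 242 of 288 cases. No paired analysis was possible because the WT columns cannot be matched to the replicate numbers of the labels. Depth limits Rragb, Fnip2, the 9-exon Tfe3 line and the low Mitf lines.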
